A study of Mus musculus with 12 samples.

Results

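Immunoglobulin heavy and light chain transcripts were followed across 12 arrays of bone marrow B cells from mice with a Myc transgene, a TTP transgene, both or neither. The members are the probe sets of the Affymetrix MOE430 2.0 array whose annotation holds at least 1 symbol that begins with Igh, Igk or Igl, leaving out Ighmbp2, Igll1 and Iglon5, which are not chain segments. This gave 56 of the 45101 probe sets, with 28 different symbols between them, and 35 of the 56 had a log2 intensity above 4 on at least 3 of the 12 arrays, the floor below which a probe set was not tested. Of the 56, 23 belong to the heavy chain (13 above the floor), 29 to kappa (18 above the floor) and 4 to lambda (all 4 above the floor). By region, 18 carry a heavy constant gene only (11 above the floor), 26 carry variable segments only (17 above the floor), 8 mix variable with constant or joining symbols (5 above the floor) and 4 are annotated to the kappa locus as a whole, as Igk (2 above the floor).

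The 4 groups hold 3 arrays each. They are Eμ-Myc;Eµ-TTP-1 double transgenic mice, Eμ-Myc mice, Eµ-TTP-1 mice and wild-type mice, all littermates aged 4 to 6 weeks on a background that was 94% C57BL/6. The labels call both groups with Myc precancerous. Marrow cells were enriched on beads for B220 (CD45R), which sits on the surface of B-lineage cells from the pro-B stage on and of some other marrow cells. Eµ is the intronic enhancer of the immunoglobulin heavy chain locus, so each transgene is driven in the B lineage by an element taken from the genes described here. Tristetraprolin (TTP), encoded by Zfp36, binds AU-rich mRNAs and promotes their decay, and the series asks how it acts against Myc-induced lymphoma. The labels call the arrays of a group biological replicates.

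Each antibody chain is assembled in developing B cells by V(D)J recombination, which joins 1 variable, for the heavy chain 1 diversity, and 1 joining segment ahead of the constant exons. The heavy chain is rearranged first and is made at the pre-B stage with the surrogate light chain, and kappa or, less often in the mouse, lambda follows. Immature and mature B cells carry the mu heavy chain (Ighm) with a light chain on their surface, and class switching later replaces mu with constant genes such as gamma 3 (Ighg3) or alpha (Igha). Plasma cells, few in number and rich in immunoglobulin mRNA, secrete the antibody, and the joining chain Jchain links the units of IgM and IgA polymers. Segments of a family resemble each other closely. Of the 56 probe sets, 13 carry several symbols and 21 carry the suffix _x_at or _s_at, which Affymetrix gives to probe sets that may bind several transcripts, so signal cannot be given to a single V segment with certainty, and members that share symbols are not independent.

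Before the results, 2 arrays stand apart from their labels. The Myc probe set gave log2 intensities of 11.82, 12.73 and 13.37 on the Eμ-Myc;Eµ-TTP-1 arrays, 13.71, 13.92 and 13.00 on the Eμ-Myc arrays, 10.05, 10.39 and 13.47 on the Eµ-TTP-1 arrays and 9.65, 9.68 and 12.65 on the wild-type arrays. The arrays labelled wild type 3 and Eµ-TTP-1 3 thus carried Myc signal within the range of the Eμ-Myc groups, and results that rest on them are also given without them, a choice made after the values were seen. The Zfp36 probe set was not higher with the TTP label (7.47 to 9.18 on Eμ-Myc;Eµ-TTP-1 arrays against 9.28 to 9.997 on Eμ-Myc arrays, and 9.78 to 9.89 on Eµ-TTP-1 arrays against 9.80 to 10.70 on wild-type arrays), and whether its probes lie in the transgene was not tested. B-lineage markers were bright on every array, with a mean log2 intensity over 9 genes of 12.73 to 12.81, 12.55 to 13.05, 12.88 to 13.51 and 13.13 to 13.67 in the 4 groups in the order above. Markers of granulocytes averaged 10.13 to 11.39, 6.18 to 11.68, 11.30 to 13.31 and 11.93 to 12.88, so the preparations held transcripts of other cells in amounts that differed between arrays. These arrays are bulk samples, in which fewer cells of a type and less RNA per cell cannot be told apart.

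The brightest members belonged to the mu constant gene and to kappa. The Ighm probe set 1427329_a_at read 14.54, 14.47 and 14.82 on the Eμ-Myc;Eµ-TTP-1 arrays, 14.29, 14.42 and 14.74 on the Eμ-Myc arrays, 14.94, 14.98 and 14.69 on the Eµ-TTP-1 arrays and 15.19, 15.10 and 14.82 on the wild-type arrays. The kappa probe set 1427455_x_at, annotated to Igkv6-23, Igkv4-53, Igkv8-30, Igkj1 and Igkc, read 14.57, 14.51 and 14.70, then 14.36, 14.58 and 14.92, then 15.19, 15.31 and 14.79, and 15.42, 15.41 and 14.99 in the same group order. Both varied by about 1 log2 unit over all 12 arrays, and both were lowest on array 1 of Eμ-Myc. Of the lambda chain, the probe set 1424931_s_at (Iglc1 and Iglv1) ranged far more widely, with 11.26, 10.32 and 10.55 on the Eμ-Myc;Eµ-TTP-1 arrays, 8.39, 10.51 and 12.57 on the Eμ-Myc arrays, 14.17, 14.17 and 11.89 on the Eµ-TTP-1 arrays and 13.91, 14.12 and 13.13 on the wild-type arrays. Its highest Eμ-Myc array lay above its lowest Eµ-TTP-1 array, so the groups with and without Myc overlapped. The variable heavy segment Ighv14-2 (1455530_at), whose protein product forms part of the antigen-binding site, read 11.47, 11.07 and 11.25, then 11.01, 11.27 and 12.32, then 13.28, 13.93 and 11.82, and 13.32, 13.53 and 12.51. Igkv8-30 (1452463_x_at) read 12.29, 12.27 and 12.26, then 12.54, 12.53 and 13.13, then 13.74, 13.60 and 12.85, and 13.77, 13.63 and 13.63. In each of these 5 probe sets the array labelled Eµ-TTP-1 3 was the lowest of its group and Eμ-Myc 3 the highest of its own.

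**Figure D1:**
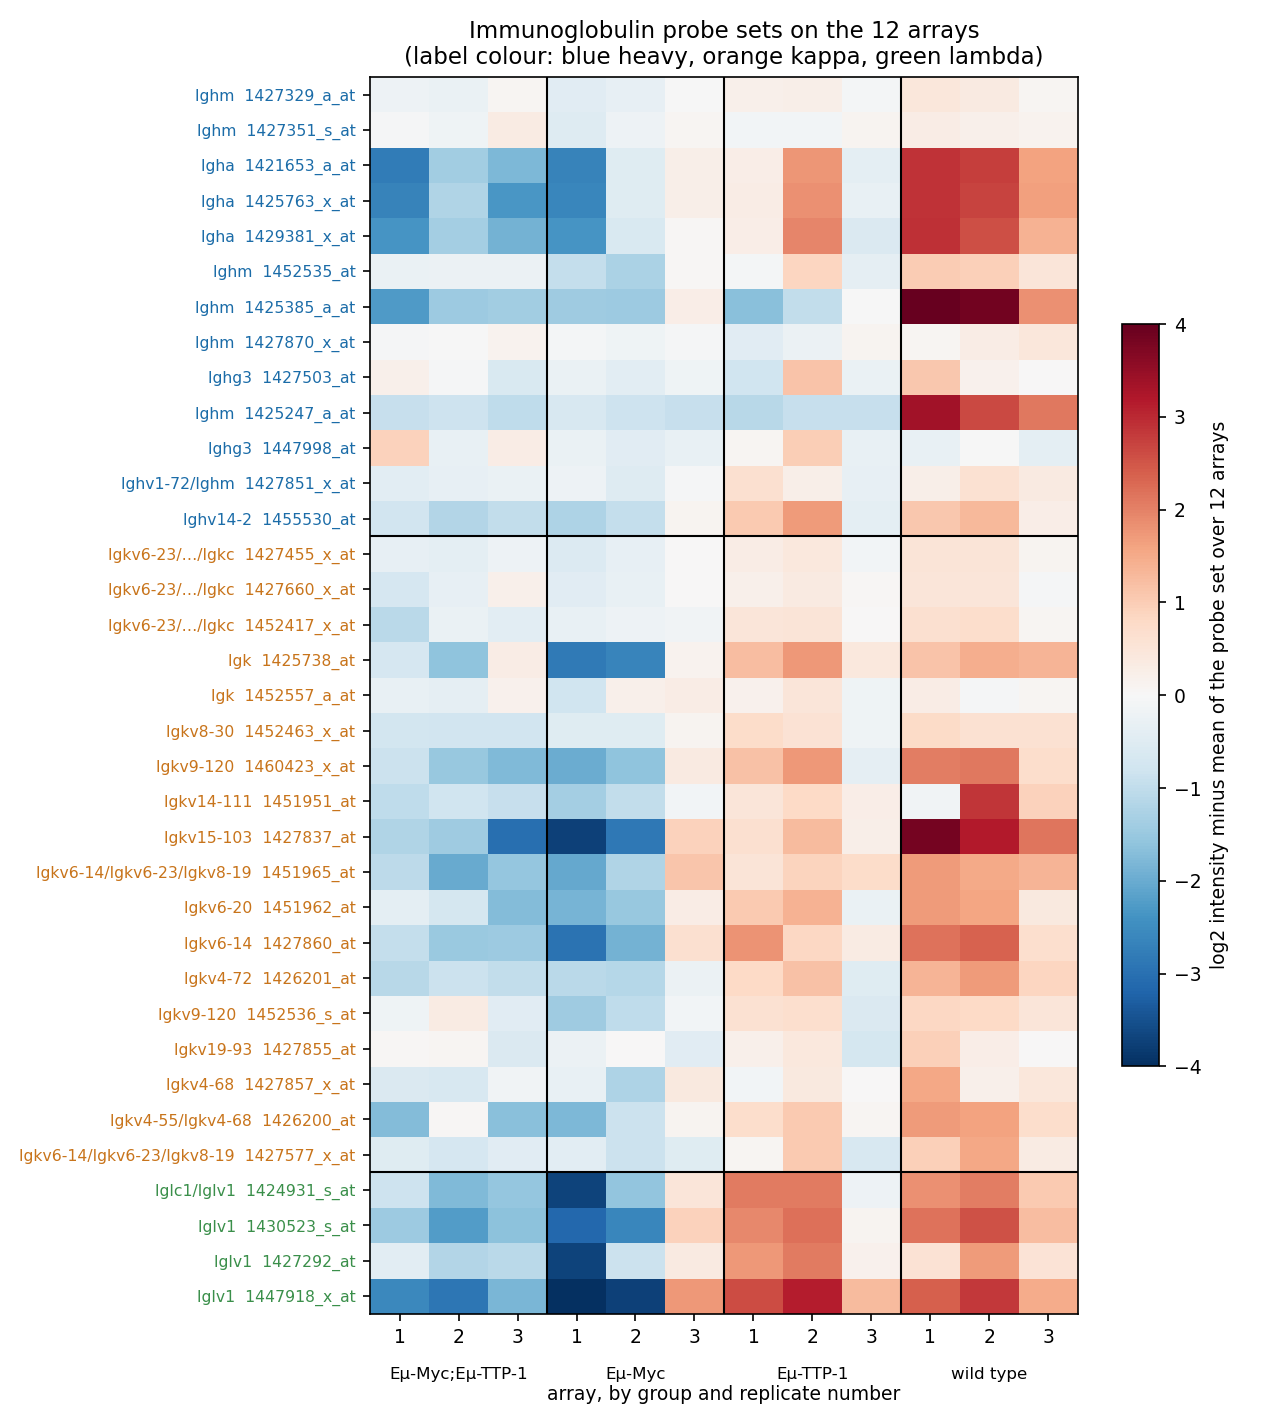
Heat map of the 35 immunoglobulin probe sets above the floor (down the page, by chain) on the 12 arrays (across, by group and replicate number), coloured by log2 intensity minus the mean of the probe set over all arrays, with colours ending at 4 log2 units either way. Reds gather on the wild-type arrays and on Eµ-TTP-1 arrays 1 and 2, blues on the arrays with the Myc label, and Eμ-Myc 3 and the array labelled Eµ-TTP-1 3 lie between.

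**Figure D2:**
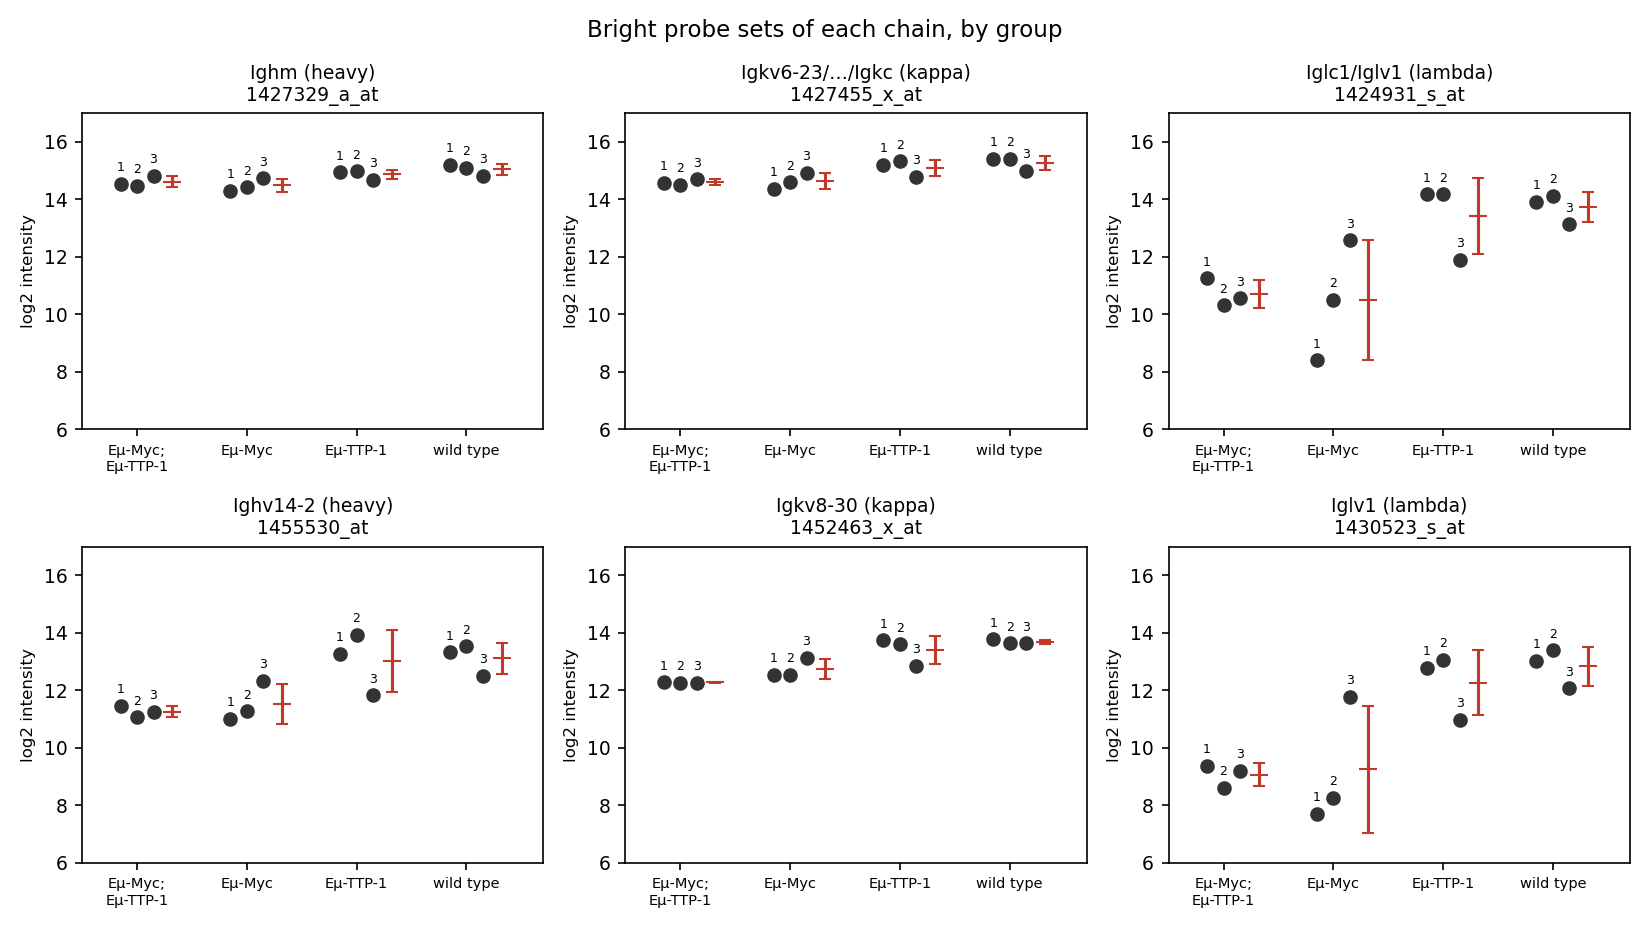
Log2 intensity of 6 bright probe sets, 2 for each chain, in the 4 groups. Numbered points are arrays, and the red bar beside them is the mean ± SD (n = 3). Ighm and the brightest kappa probe set stay between 14.29 and 15.42, while Iglc1/Iglv1 runs between 8.39 and 14.17.

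Arrays with the Myc label had lower immunoglobulin signal in every chain. The comparison sets the mean of the Eμ-Myc and Eμ-Myc;Eµ-TTP-1 groups against the mean of the Eµ-TTP-1 and wild-type groups. Of the 35 probe sets tested, 28 were lower with Myc and 0 higher in limma's moderated test (Benjamini-Hochberg adjusted p under 0.05 over 22245 probe sets), where 18.1% of all probe sets tested were lower and 32.1% changed in either direction. The 28 include 1425247_a_at, above the floor on wild-type arrays only, and 1427577_x_at, above it only on arrays without Myc. They also include 1427851_x_at, whose only array with Myc above the floor was Eμ-Myc 3 (4.02). In 1426200_at only Eμ-Myc;Eµ-TTP-1 2 (4.49) and Eμ-Myc 3 (4.54) were above it among arrays with Myc. Each of these probe sets needed arrays without Myc to enter the test, so the filter set part of its difference. The median difference of the 35 was -1.71 on the log2 scale, against -0.05 for all probe sets tested. All 35 differences were below 0, and 33 of 35 were after quantile normalization and after scaling to a common median. With no filter 28 of the 56 members were lower, 26 of them among the 35 above the floor, where 10.3% of all 45101 probe sets passed.

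Probe sets annotated to the mu constant gene differed from each other. The brightest, Ighm 1427329_a_at, averaged 14.55 with Myc and 14.95 without, a difference of -0.41 ± 0.10 (SE, adjusted p = 0.0221, limma), or 1.32-fold lower. A second bright Ighm probe set, 1427351_s_at, differed by -0.18 ± 0.11 and did not pass (adjusted p = 0.24). It read 13.99, 13.87 and 14.38 on the Eμ-Myc;Eµ-TTP-1 arrays, 13.55, 13.87 and 14.14 on the Eμ-Myc arrays, 13.96, 13.95 and 14.15 on the Eµ-TTP-1 arrays and 14.35, 14.26 and 14.19 on the wild-type arrays, so the Eμ-Myc arrays and the Eµ-TTP-1 arrays each lay below the wild-type arrays and the other pairs of groups overlapped. Of the other Ighm probe sets, 1452535_at fell (-0.96 ± 0.26, adjusted p = 0.0241) and 1427870_x_at differed by -0.08 ± 0.14 (adjusted p = 0.646). The widest mu differences were in 1425385_a_at, with means of 4.86 with Myc and 7.43 without (-2.57 ± 0.51, adjusted p = 0.0219), and in 1425247_a_at, with means of 3.00 and 4.71 (-1.71 ± 0.19, adjusted p = 0.0219). Group means of 1425385_a_at were 4.44 in Eμ-Myc;Eµ-TTP-1, 5.27 in Eμ-Myc, 5.25 in Eµ-TTP-1 and 9.61 in wild type. Those of 1425247_a_at were 2.93, 3.06, 2.87 and 6.56 in the same order. In both, the Eµ-TTP-1 mean lay below the Eμ-Myc mean, so only wild type stood apart. The probe set 1425247_a_at was above the floor on wild-type arrays only, so its difference was in part set by the filter. In all, 7 of the 11 heavy constant probe sets tested were lower, both of these among them, with a median difference of -0.96.

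Switched constant genes split. Igha, the constant gene of IgA, was lower by a wide margin in its 3 probe sets, of which 1421653_a_at averaged 8.72 with Myc and 11.69 without, a difference of -2.97 ± 0.53 (adjusted p = 0.0219) or 7.84-fold. Its arrays read 7.40, 8.82 and 8.40 in Eμ-Myc;Eµ-TTP-1 mice, 7.53, 9.71 and 10.45 in Eμ-Myc mice, 10.47, 11.97 and 9.80 in Eµ-TTP-1 mice and 13.10, 12.97 and 11.82 in wild-type mice. The other Igha probe sets, 1425763_x_at and 1429381_x_at, fell by 3.02 ± 0.53 and by 2.83 ± 0.51 (adjusted p = 0.0219 each). Ighg3, the constant gene of IgG3, stayed low throughout, with 5.83, 5.59 and 5.03 on Eμ-Myc;Eµ-TTP-1 arrays, 5.38, 5.23 and 5.47 on Eμ-Myc arrays, 4.85, 6.77 and 5.38 on Eµ-TTP-1 arrays and 6.71, 5.82 and 5.65 on wild-type arrays (1427503_at). Its difference was -0.44 ± 0.32 (adjusted p = 0.296), and its groups overlapped. The dimmer Ighg3 probe set 1447998_at differed by -0.02 ± 0.25 (adjusted p = 0.944).

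Kappa probe sets were described by region, and the difference between regions was not tested. The 3 mixed kappa probe sets were lower by 0.50 to 0.80 on the log2 scale. In 1427455_x_at the difference was -0.58 ± 0.12 (adjusted p = 0.0219) or 1.49-fold lower. Among 13 kappa V probe sets, 11 were lower, with a median difference of -1.80 and a range of -3.77 to -0.37. Igkv8-30 (1452463_x_at) had the smallest p of the segment probe sets, at -1.03 ± 0.16 (adjusted p = 0.0219) or 2.05-fold lower. Igkv4-72 (1426201_at) followed at -1.80 ± 0.29 (adjusted p = 0.0219), with 4.73, 5.003 and 4.86 on Eμ-Myc;Eµ-TTP-1 arrays, 4.77, 4.72 and 5.62 on Eμ-Myc arrays, 6.65, 7.01 and 5.35 on Eµ-TTP-1 arrays and 7.20, 7.57 and 6.71 on wild-type arrays. Only Eμ-Myc 3 and the array labelled Eµ-TTP-1 3 crossed there. Igkv15-103 (1427837_at) had the largest kappa difference, -3.77 ± 0.71 (adjusted p = 0.0219) or 13.7-fold lower, and read 6.05 or less on 5 of 6 arrays with Myc: 6.05, 5.85 and 4.26 on the Eμ-Myc;Eµ-TTP-1 arrays, 3.54, 4.40 and 8.20 on the Eμ-Myc arrays, 7.92, 8.54 and 7.51 on the Eµ-TTP-1 arrays and 11.11, 10.44 and 9.42 on the wild-type arrays. The kappa probe sets that did not pass were Igkv19-93 (1427855_at, -0.37 ± 0.24, adjusted p = 0.241), Igkv4-68 (1427857_x_at, -0.83 ± 0.30, adjusted p = 0.0562) and the Igk probe set 1452557_a_at (-0.26 ± 0.21, adjusted p = 0.333).

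Of all 35 probe sets, 2 had every array with Myc below every array without it, against 0.697% of all probe sets tested. They were the Igk probe set 1425738_at (-2.44 ± 0.51, adjusted p = 0.0219) and the mixed kappa probe set 1452417_x_at (-0.80 ± 0.16, adjusted p = 0.0219). Igk 1425738_at read 8.58, 7.66 and 9.57 on the Eμ-Myc;Eµ-TTP-1 arrays, 6.44, 6.64 and 9.40 on the Eμ-Myc arrays, 10.52, 10.99 and 9.68 on the Eµ-TTP-1 arrays and 10.40, 10.73 and 10.63 on the wild-type arrays. The separation was narrow, as Eμ-Myc;Eµ-TTP-1 3 at 9.57 lay just below the array labelled Eµ-TTP-1 3 at 9.68.

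Lambda probe sets had the largest differences as a chain. All 4 were lower with Myc, with a median difference of -3.18, beside -1.42 for the 18 kappa and -0.96 for the 13 heavy probe sets. Iglc1/Iglv1 1424931_s_at averaged 10.60 with Myc and 13.56 without (-2.96 ± 0.64, adjusted p = 0.0219), or 7.80-fold lower. Iglv1 1430523_s_at read 9.38, 8.61 and 9.20 on Eμ-Myc;Eµ-TTP-1 arrays, 7.71, 8.25 and 11.77 on Eμ-Myc arrays, 12.78, 13.05 and 10.97 on Eµ-TTP-1 arrays and 13.02, 13.39 and 12.08 on wild-type arrays, a difference of -3.39 ± 0.65 (adjusted p = 0.0219). Iglv1 1447918_x_at read 4.89 or less on 5 of 6 arrays with Myc (4.15, 3.81 and 4.89 in Eμ-Myc;Eµ-TTP-1, 2.23, 2.98 and 8.45 in Eμ-Myc) and bright without it (9.33, 9.85 and 7.99 in Eµ-TTP-1, 9.11, 9.56 and 8.20 in wild type). Its difference of -4.59 ± 0.91 (adjusted p = 0.0219) was the largest of the 35. The fourth, 1427292_at, fell by 2.29 ± 0.61 (adjusted p = 0.0232). These 4 probe sets share their target genes, so they are repeated readings of 1 chain and not 4 independent findings.

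**Figure D3:**
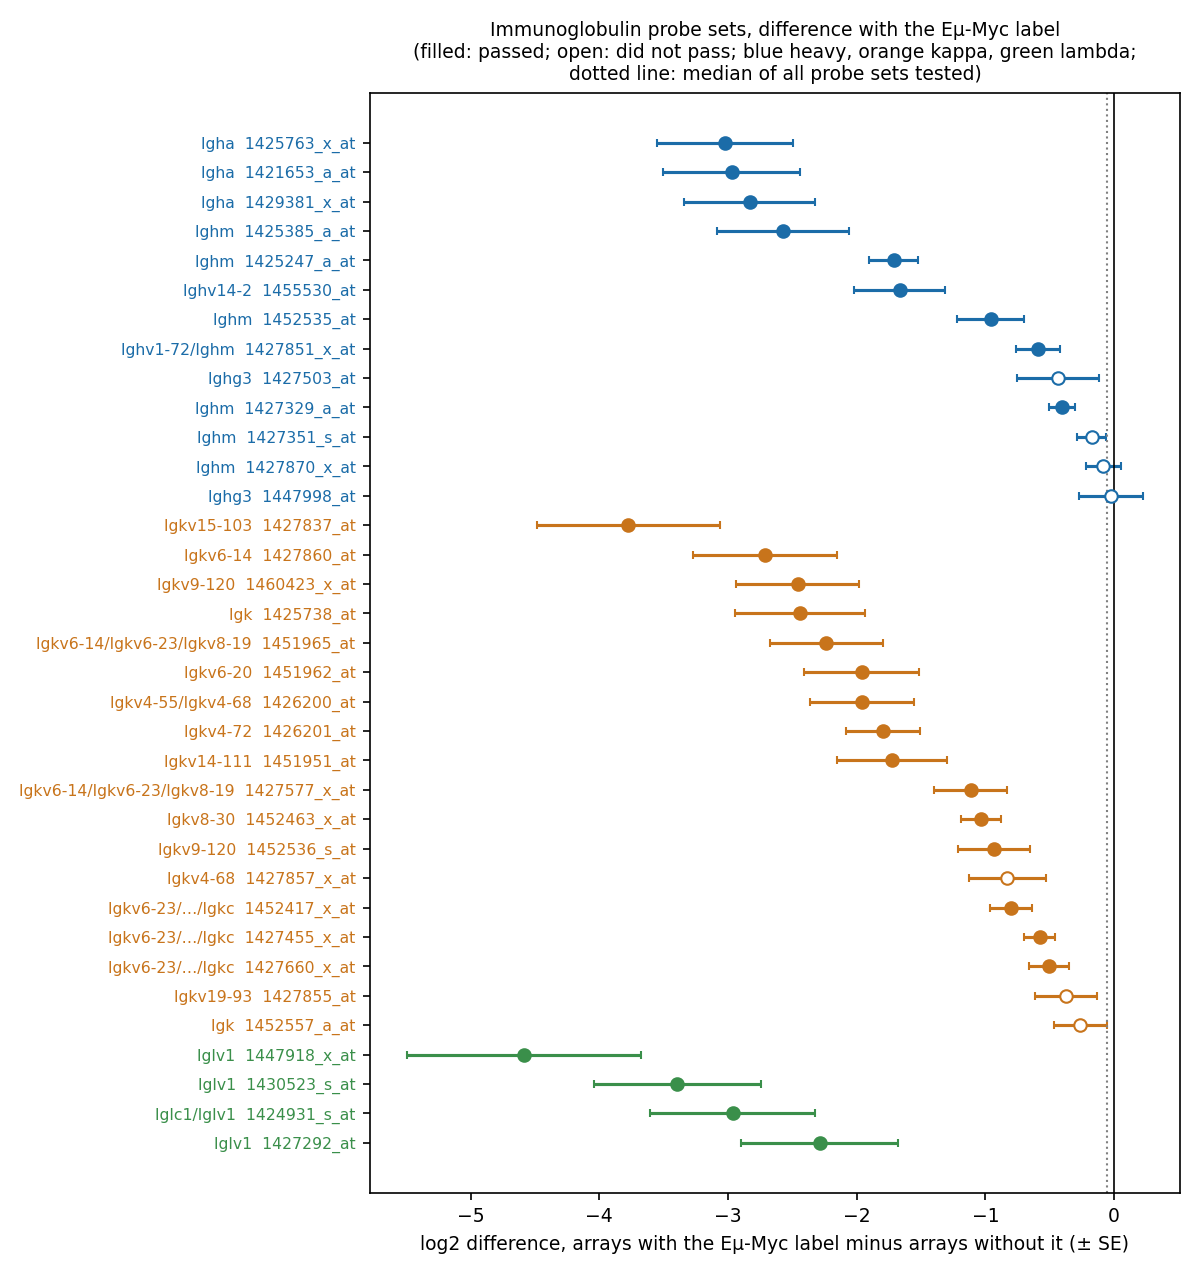
Log2 difference of each immunoglobulin probe set tested, mean of arrays with the Eμ-Myc label minus mean of arrays without it (horizontal axis, ± SE), sorted within heavy, kappa and lambda. Filled points passed (28 of 35), open points did not, and the dotted line is the median of all probe sets tested, -0.05.

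The unequal shift of the chains was set within arrays, which removes an error that moves both probe sets of an array equally. An error that varies with intensity is not removed. The lambda probe set ran from 8.39 to 14.17, below the range of 14.29 to 15.42 of Ighm and kappa, and the part of such an error was not tested. The brightest probe set of each chain was taken, a choice made after the values were seen, and the log2 ratio itself has no meaning since probes differ in brightness, so only its change between groups is read. The ratios stand for these probe sets and not for whole chains. The kappa probe set taken was lower with Myc by 0.58, whereas the 13 kappa V probe sets had a median difference of -1.80. The ratio of lambda (1424931_s_at) to kappa (1427455_x_at) was -3.32, -4.19 and -4.15 on the Eμ-Myc;Eµ-TTP-1 arrays, -5.97, -4.07 and -2.35 on the Eμ-Myc arrays, -1.02, -1.15 and -2.90 on the Eµ-TTP-1 arrays and -1.51, -1.29 and -1.87 on the wild-type arrays. The group means were -3.89 ± 0.49, -4.13 ± 1.81, -1.69 ± 1.05 and -1.56 ± 0.29 (SD, n = 3 each). Over 6 arrays with Myc against 6 without, the ratio changed by -2.38 (two-sided exact permutation p = 0.00433, adjusted over the 3 pairs of chains p = 0.00649, where 0.00216 is the smallest p the design allows). The array labelled Eµ-TTP-1 3 lay below Eμ-Myc 3, and every other array without Myc lay above every array with it. Lambda against Ighm changed by -2.56 (exact permutation p = 0.00433, adjusted p = 0.00649), and kappa against Ighm by -0.17 (exact permutation p = 0.013, adjusted p = 0.013). Without the arrays labelled wild type 3 and Eµ-TTP-1 3 the changes were -2.76, -2.99 and -0.22.

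**Figure D4:**
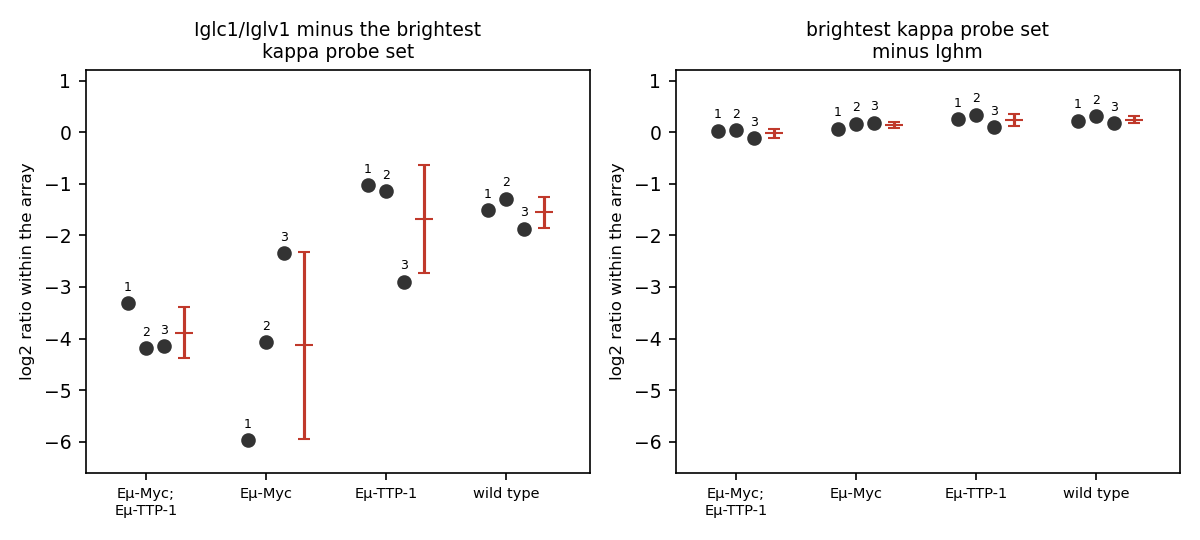
Log2 ratio within each array of the brightest lambda to the brightest kappa probe set (left) and of the brightest kappa probe set to Ighm 1427329_a_at (right), by group on 1 shared scale, with numbered arrays and mean ± SD in red (n = 3). The left panel spans -5.97 to -1.02, the right -0.12 to 0.34.

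The count of 28 depends on single arrays. Leaving out Eμ-Myc 1, Eμ-Myc 2, Eµ-TTP-1 1, Eµ-TTP-1 2 or wild type 2 left 0 of 35, and leaving out wild type 1 left 1, while leaving out any of the other 6 arrays left 24 to 29. In those fits with 0 members, 0 of all 22245 probe sets passed too, and 29 of the 35 still had an unadjusted p under 0.05. Without the arrays labelled wild type 3 and Eµ-TTP-1 3 it was 29 of 35, where 53.8% of all probe sets tested passed. Other markers moved with the Myc label as well: 15 of 15 granulocyte, 11 of 11 pro-B and pre-B, 7 of 8 immature and mature B and 8 of 9 B-lineage markers were lower, with median differences of -3.27, -1.70, -2.07 and -0.56. Of all probe sets tested, 18.1% were lower. Also lower were 6 of 6 monocyte and macrophage, 7 of 7 plasmacytoid dendritic, 5 of 6 erythroid and 5 of 6 NK cell markers. Of plasma cell markers 4 of 11 were lower and 1 higher, and of T cell markers 2 of 3 were lower and 1 higher. The part of these cells in the immunoglobulin differences was not tested.

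Between Eμ-Myc and wild-type mice alone, 1 of 35 members passed. It was the Ighm-annotated probe set 1425247_a_at, and 0.00899% of all probe sets tested passed, 2 in number. It passed the filter through its wild-type arrays alone, so that a difference from wild type was in part fixed by the filter. Its arrays read 3.22, 3.02 and 2.94 in Eμ-Myc mice, all under the floor, and 7.20, 6.50 and 5.97 in wild-type mice, at least 5.88-fold lower (-3.50 ± 0.27, adjusted p = 0.00118). The other members did not pass, although 30 of 35 had an unadjusted p under 0.05 against 35.7% of all, and 28 of 35 had all 3 Eμ-Myc arrays below all 3 wild-type arrays against 36.9% of all. The median difference was -2.02, against -0.21 for all probe sets. Igha 1421653_a_at differed by -3.40 ± 0.75, Igkv15-103 (1427837_at) by -4.95 ± 1.01, Igk 1425738_at by -3.09 ± 0.72, Igkv4-72 (1426201_at) by -2.12 ± 0.41 and Ighm 1427329_a_at by -0.56 ± 0.15 (adjusted p = 0.0607 each), and Ighg3 1427503_at by -0.70 ± 0.45 (adjusted p = 0.276). Without Eμ-Myc 3, without the array labelled Eµ-TTP-1 3 or without that labelled wild type 3, 26 of 35 passed, where 12.1%, 26.5% and 27.1% of all probe sets passed, and without both arrays that go against their labels 28 of 35 passed, where 41% of all probe sets passed.

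With the TTP transgene alone, the bright chains differed little from wild type in their means. Of 35 members, 1 passed in Eµ-TTP-1 against wild type and it was lower, and 0.0045% of all probe sets tested passed, 1 in number. That probe set was again 1425247_a_at, with 2.73, 2.94 and 2.92 in Eµ-TTP-1 mice and 7.20, 6.50 and 5.97 in wild-type mice, at least 5.88-fold lower (-3.69 ± 0.27, adjusted p = 0.000674). It passed the filter through its 3 wild-type arrays alone, so some difference was set by the filter. The median difference of the 35 was -0.46, against -0.07 for all probe sets, with 7 of 35 at an unadjusted p under 0.05 against 1.79% of all and 5 of 35 with all Eµ-TTP-1 arrays below all wild-type arrays against 3.86% of all.

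The 2 largest differences of members between Eµ-TTP-1 and wild type were in heavy constant probe sets. A second Ighm-annotated probe set, 1425385_a_at, read 4.47, 5.15 and 6.13 in Eµ-TTP-1 mice and 10.86, 10.004 and 7.96 in wild-type mice, and 3.89 to 6.41 on the 6 arrays with Myc. Its difference of -4.36 ± 0.73 did not pass (adjusted p = 0.7), but did without the arrays labelled wild type 3 and Eµ-TTP-1 3 (-5.63, adjusted p = 0.0278). Another, 1425324_x_at, did not reach the floor on enough arrays to be tested, and read 6.25, 5.04 and 3.82 in wild-type mice and 2.60 to 2.83 on the other 9 arrays. The probe sets are annotated to Ighm, whereas the bright Ighm probe set 1427329_a_at differed by -0.17 ± 0.15 (adjusted p = 1), and which heavy chain transcripts they bind was not tested. Igha 1421653_a_at differed by -1.88 ± 0.75 (adjusted p = 1), its wild-type arrays overlapping Eµ-TTP-1 2. Jchain showed the same order of groups, with 6.76, 8.51 and 7.64 in Eµ-TTP-1 mice and 11.23, 10.50 and 9.95 in wild-type mice (-2.92 ± 0.63, adjusted p = 1). On arrays with Myc, Jchain read 4.85, 5.34 and 5.25 in Eμ-Myc;Eµ-TTP-1 mice and 5.53, 6.85 and 8.28 in Eμ-Myc mice. Over 11 plasma cell markers tested, Jchain among them, the median difference of Eµ-TTP-1 from wild type was -0.25, and 0 passed. The mean log2 level over the same 11 was 8.74 to 9.08 in Eµ-TTP-1 mice and 9.24 to 9.45 in wild-type mice. The part of plasma cells in these differences was not tested.

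**Figure D5:**
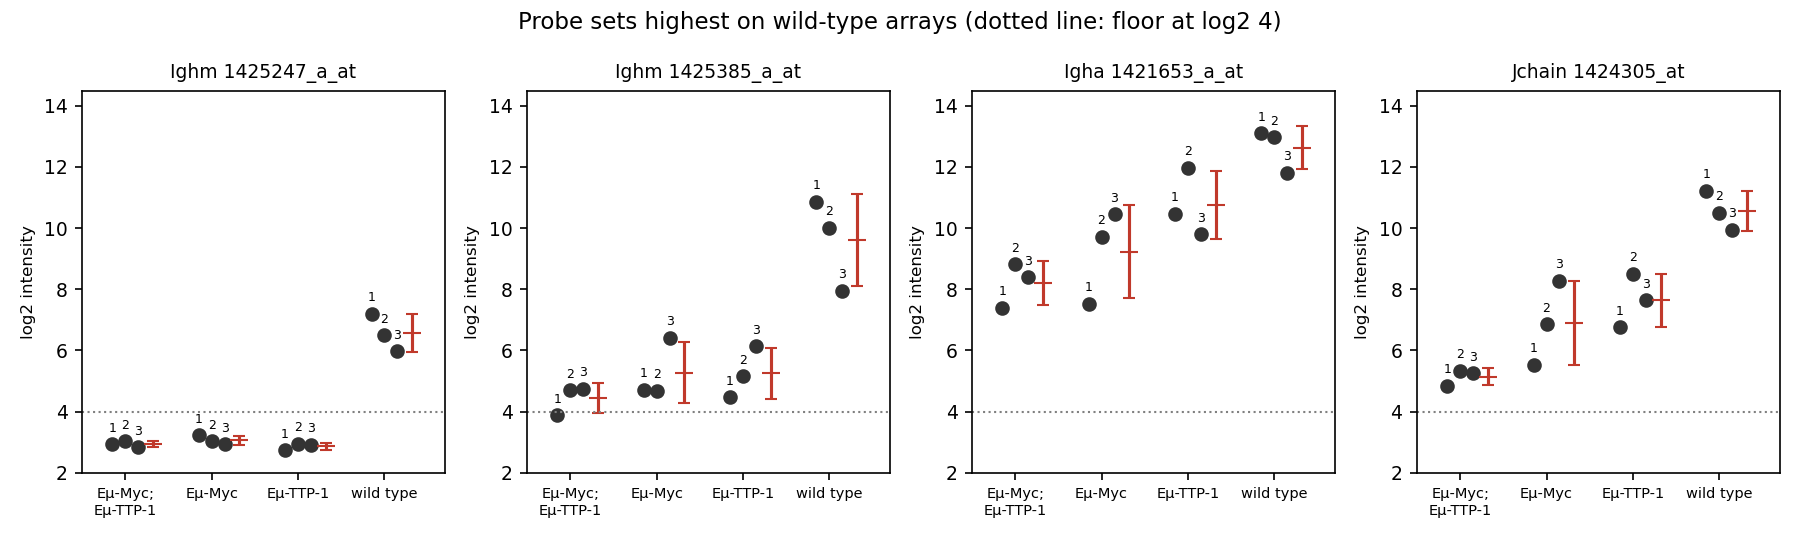
Log2 intensity of 2 Ighm-annotated probe sets, Igha 1421653_a_at and Jchain in the 4 groups, with numbered arrays, mean ± SD in red (n = 3) and the floor at 4 as a dotted line. In the first 2 panels and for Jchain all 3 wild-type arrays lie above the 9 others.

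Light chains showed no called difference with TTP alone. Among kappa segments, Igkv15-103 (1427837_at) differed by -2.34 ± 1.01, Igkv4-72 (1426201_at) by -0.82 ± 0.41 and the Igkv6-14, Igkv6-23 and Igkv8-19 probe set 1427577_x_at by -0.78 ± 0.40 (adjusted p = 1 each). The lambda probe sets lay on either side of 0, with a median of -0.10 and a largest rise of 0.39 ± 0.86 in 1427292_at, and Igk 1452557_a_at differed by 0.05 ± 0.29 (adjusted p = 1 each). With SDs of 1.32 in Eµ-TTP-1 and 0.52 in wild type for Iglc1/Iglv1 1424931_s_at, its difference of -0.31 ± 0.90 lay within the spread of its arrays.

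With Myc present, the TTP transgene was tested by Eμ-Myc;Eµ-TTP-1 against Eμ-Myc. Here 0 of 35 members passed, 0% of all probe sets tested passed, and 0 of 35 had an unadjusted p under 0.05, against 16% of all. That gap depends on the scaling, as 2 of 35 members stood beside 1375 of all 22245 probe sets under quantile normalization and 2 beside 1337 with a common median. The median difference was -0.05, against 0.25 for all probe sets, with 20 members below 0 and 15 above. Heavy, kappa and lambda had medians of -0.09, -0.04 and 0.02. The segments with the smallest p were Igkv8-30 (1452463_x_at, -0.46 ± 0.22, adjusted p = 0.329) and Igkv9-120 (1452536_s_at, 0.75 ± 0.40, adjusted p = 0.37). All 3 double transgenic arrays lay below the Eμ-Myc arrays for 1 member, Igkv8-30, and above them for 1, Ighm 1427870_x_at. Of all 22245 probe sets, 337 lay below and 6050 above in this way. Igk 1425738_at was higher by 1.11 ± 0.72 (adjusted p = 0.444) and the mixed kappa probe set 1452417_x_at lower by 0.39 (-0.39 ± 0.23, adjusted p = 0.413). Igha 1421653_a_at differed by -1.02 ± 0.75 (adjusted p = 0.495), Ighg3 1427503_at by 0.13 ± 0.45 (adjusted p = 0.896) and Ighm 1427329_a_at by 0.13 ± 0.15 (adjusted p = 0.648), and the last 2 turned below 0 when arrays were scaled to a common median. For lambda the Eμ-Myc arrays themselves spanned 8.39 to 12.57 (1424931_s_at, SD 2.09), which limits what 3 arrays can show.

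Eμ-Myc;Eµ-TTP-1 against Eµ-TTP-1, the effect of Myc in the presence of TTP, gave median differences in the same order of chains. No member passed (0 of 35, 0% of all probe sets tested), yet 20 of 35 had an unadjusted p under 0.05 against 30.4% of all, and 21 of 35 had all double transgenic arrays below all Eµ-TTP-1 arrays, against 4.51% of all. The median difference was -1.12, against 0.09 for all probe sets, and it was -0.39 for heavy, -1.27 for kappa and -2.95 for lambda. The smallest p belonged to Igkv8-30 (1452463_x_at, -1.12 ± 0.22, adjusted p = 0.0788), followed among segments by the mixed kappa probe set 1452417_x_at (-0.93 ± 0.23) and Iglv1 1447918_x_at (-4.77 ± 1.28, adjusted p = 0.0788 each). Igha 1421653_a_at differed by -2.54 ± 0.75 (adjusted p = 0.0793), Ighg3 1427503_at by -0.18 ± 0.45 (adjusted p = 0.81) and Ighm 1427329_a_at by -0.26 ± 0.15 (adjusted p = 0.253). Without the array labelled Eµ-TTP-1 3, 19 of 35 passed, where 27.8% of all probe sets passed, and without that labelled wild type 3, which enters only through the shared spread, 6 of 35 passed beside 11.6% of all. Eμ-Myc 3, which enters in the same way, left 1 of 35 when it was removed, beside 0.0135% of all. This comparison shares its arrays with those above and is not separate evidence.

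Whether the TTP difference itself changed with Myc was tested by the interaction, the TTP difference with Myc minus that without it. Of 35 members 1 was higher, 1425247_a_at at 3.56 ± 0.38 (adjusted p = 0.0317), and 0.0045% of all probe sets tested passed, 1 in number. All 9 of its arrays other than wild type lay below the floor, so the term restates that the wild-type arrays alone were bright, and it did not pass when values under the floor were set to it (adjusted p = 0.294). With replicate number as a block its adjusted p was 0.0995. Among the other members, Igkv9-120 (1452536_s_at) had 1.21 ± 0.56 (adjusted p = 0.453), Igkv15-103 (1427837_at) 2.34 ± 1.42 (adjusted p = 0.503) and Igkv8-30 (1452463_x_at) -0.18 ± 0.31 (adjusted p = 0.785). The median was 0.52, against 0.34 for all probe sets.

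Spread between arrays of a group was widest for lambda. The median SD within groups was 0.612 log2 units for the 35 members, against 0.300 for all probe sets tested, and it was 0.494 for heavy, 0.564 for kappa and 1.29 for lambda. Arrays took the same places for most members: Eμ-Myc 3 was the highest Eμ-Myc array for 31 of 35 (33.4% of all probe sets), the array labelled Eµ-TTP-1 3 the lowest of its group for 28 of 35 (61.4% of all), that labelled wild type 3 the lowest for 28 of 35 (44.3% of all) and Eµ-TTP-1 2 the highest for 28 of 35 (46.7% of all). In Eμ-Myc;Eµ-TTP-1 mice no array led among members, as arrays 1, 2 and 3 were highest for 12, 11 and 12 of 35. Over all probe sets array 1 did lead, with shares of 66.8%, 17.6% and 15.5%. The lambda median of an array was 9.53, 8.76 and 9.11 in Eμ-Myc;Eµ-TTP-1 mice, 7.05, 8.74 and 11.11 in Eμ-Myc mice, 12.30, 12.62 and 10.62 in Eµ-TTP-1 mice and 11.85, 12.59 and 11.36 in wild-type mice. Granulocyte markers ran the same way in Eμ-Myc mice, where the 3 arrays averaged 6.18, 7.59 and 11.68, and their part was not tested.

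A clonal expansion can raise 1 V segment on 1 array, so segments were searched for a lone high array. No member had its highest array 2 or more log2 units above the next (0 of 35), while 3 of 22245 probe sets did (0.0135%). So few probe sets reach this gap that a count of 0 among 35 cannot show whether clones were present. The gap was also taken over all groups together, and members read lower with Myc (median difference -1.71). A clone on an array with Myc would thus have had to stand above the brighter arrays without it. No conclusion on clones is drawn from the search. The largest gap was in Igkv14-111 (1451951_at), which read 10.66 on wild type 2 and 8.71 on the next array, wild type 3, a gap of 1.95. Igkv4-68 (1427857_x_at) came next, with 6.10 on wild type 1 and a gap of 1.09. No array with the Myc label gave 1 of these 2 highest values, which carries little weight given the lower signal of members with Myc. The few V segments on the array cover a small part of the repertoire, and clones that use other segments cannot be seen.

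The 21 members that were not tested were dim. Of these, 18 were above the floor on no array and 3 on 1 or 2 arrays. Just inside the filter lay Ighg3 1447998_at, whose 3 highest arrays ended at 4.09, and the Ighv1-72 and Ighm probe set 1427851_x_at, at 4.41. Just outside lay Ighm 1427756_x_at, at 3.98, and the Igkv6-14 and Igkv6-23 probe set 1427799_x_at, at 3.86. Of the 35 tested, 25 were above the floor on all 12 arrays.

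Genes that build and use immunoglobulin were counted from lists of related genes, with the brightest probe set standing for a gene, in the comparison of arrays with Myc and without it, in which 32.1% of all probe sets changed. Of 13 genes of V(D)J recombination and the surrogate light chain, 7 were lower and 1 higher. Rag1 and Rag2, which cut at the recombination signals, fell by 1.44 ± 0.29 and by 0.67 ± 0.21 (adjusted p = 0.0219 and 0.0328). Dntt, which adds nucleotides at the joints, fell by 2.45 ± 0.60, and Vpreb1 and Igll1, the parts of the surrogate light chain, by 2.45 ± 0.59 and by 1.72 ± 0.41 (adjusted p = 0.0219 each). Xrcc5, a Ku subunit of end joining, rose by 1.29 ± 0.37 (adjusted p = 0.0272). Among general repair genes, Lig4 was one of the 7 that were lower. Prkdc (-0.01 ± 0.11), Xrcc4 (-0.18 ± 0.20), Xrcc6 (-0.18 ± 0.09) and Nhej1 (-0.11 ± 0.15) did not pass, nor did Hmgb2 (-0.20 ± 0.16), a cofactor of the Rag proteins.

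Of 24 transcription factors that act on immunoglobulin promoters and enhancers, 15 were lower and 0 higher, with a median of -0.56. Foxo1, which drives Rag genes, fell by 1.37 ± 0.29, Irf8 by 1.01 ± 0.21 and Ebf1, which sets B-cell identity, by 0.86 ± 0.19 (adjusted p = 0.0219 each). Pou2f2 (Oct-2), which binds the octamer of V promoters, fell by 0.62 ± 0.21 (adjusted p = 0.0452), while its coactivator Pou2af1 differed by -0.14 ± 0.05 (adjusted p = 0.0542). Of 12 partners of the antigen receptor, 8 were lower. Cd79a and Cd79b, the signalling chains that surface immunoglobulin needs, fell by 0.48 ± 0.11 and by 0.56 ± 0.13 (adjusted p = 0.0219 each), sizes near those of Ighm 1427329_a_at and kappa 1427455_x_at.

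Of 7 class switch and somatic mutation genes, 3 rose and 0 fell. These were Apex1 (1.32 ± 0.35, adjusted p = 0.0233), Ung (0.85 ± 0.24, adjusted p = 0.0268) and Exo1 (0.75 ± 0.20, adjusted p = 0.0239), which are enzymes of general DNA repair too. Of 18 genes of antibody assembly and secretion, 7 were lower and 1 higher. Jchain fell by 3.08 ± 0.45, Prdm1, the regulator of plasma cells, by 2.19 ± 0.47 and Xbp1, which expands the secretory pathway, by 0.93 ± 0.22 (adjusted p = 0.0219 each). Not every plasma cell marker was lower: of 11 tested, 4 were lower and 1 higher, with a median of -0.14, and the one that rose was Fkbp11, which helps proteins fold (2.07 ± 0.44, adjusted p = 0.0219). Hnrnpll, a splicing regulator, fell by 3.06 ± 0.85 (adjusted p = 0.0251), Pdia4, a disulphide isomerase, rose by 0.45 ± 0.13 (adjusted p = 0.0261), and Mzb1, a chaperone of IgM assembly, differed by -0.001 ± 0.07 (adjusted p = 0.993). Of 9 genes of immunoglobulin binding receptors and related proteins, 7 were lower. Among them were the IgE receptor Fcer2a (-3.13 ± 0.53), the IgM receptor Fcmr (-2.81 ± 0.60) and the neonatal Fc receptor Fcgrt (-0.86 ± 0.30), with adjusted p of 0.0219, 0.0219 and 0.0462. In Eμ-Myc against wild type and in Eµ-TTP-1 against wild type 0 genes of these lists passed. Jchain had the smallest p of its list in Eμ-Myc against wild type (-3.67 ± 0.63, adjusted p = 0.0607).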

How the data were processed

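Total RNA of B220-selected marrow was read on 12 Affymetrix arrays. Per the submitters' processing notes the authors summarised each probe set by GCRMA, with no version given, and the deposited values are intensity on a linear scale (1.73 to 120125, array medians 10.9 to 13.9). What else the authors did is not stated by the labels. GCRMA normalizes between arrays, so a change in total RNA cannot be seen, and a mean under the floor gives a fold only as a lower bound.

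The log2 of the deposited intensity was taken with no pseudocount. Each test came from 1 linear model over the 12 arrays in limma 3.58.1 (R 4.3.3), with variances moderated along the intensity trend, 4 group means and 8 residual degrees of freedom, over the 22245 probe sets above 4 on at least 3 arrays, two-sided, with Benjamini-Hochberg adjustment and a threshold of 0.05. All adjusted p-values are from this fit except those of the chain ratios. The script was tested on simulated data. Errors are SE beside differences and SD beside group means, and the number of arrays limits the precision. Samples were grouped by genotype label. Symbols come from the platform annotation, in which 34958 probe sets have 1 symbol, 932 several and 9211 none, and 27 of the 28 member symbols are in the RefSeq table of GRCm38.p6, where Igk-V21 was not matched. Listed genes without a single-symbol probe set were not analysed here.

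Same-numbered arrays of Eµ-TTP-1 and wild type had residuals correlated at 0.4365, 0.5756 and 0.7842, so these numbers were treated as paired in the alternative with a replicate block. Differently numbered arrays 1 and 2 correlated as highly (0.451 and 0.4406), so the correlations single out the number only for the arrays numbered 3. The labels do not explain it, and both arrays numbered 3 carry the Myc signal described above. Named were constant-region probe sets, the 3 other members with the smallest p in each direction of a comparison, the members with the largest gap to the next array, and called genes of the lists, in part. Members and lists were chosen with earlier results of these data known. The alternatives were no filter, a floor of 6, quantile normalization, a common median, values under 4 set to 4, no intensity trend, no moderation, the replicate block, only the groups compared, and each array left out. Added after the values were seen were fits without the arrays labelled wild type 3 and Eµ-TTP-1 3 and without the 4 arrays numbered 3, and the chain ratios.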

Additional observations from a re-analysis of the deposited data

Results flagged for a closer look

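The interaction term of the Ighm-annotated probe set 1425247_a_at was 3.56 log2 units (adjusted p = 0.0317 in limma), from a TTP difference of -0.13 ± 0.27 with Myc and -3.69 ± 0.27 without it. The 9 transgenic arrays read 2.73 to 3.22, all under the floor of 4, whereas wild type gave 7.20, 6.50 and 5.97, through which alone the probe set entered the test. The term thus restates that wild type was bright, and sets 2 groups below the floor against each other. It did not pass with values under the floor set to it (adjusted p = 0.294) or with a replicate block (adjusted p = 0.0995), so a change of the TTP difference with Myc cannot be read from it.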

How the results depend on the processing

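Of 35 members, the number passing in Eμ-Myc against wild type was 1, and it was 0 with a floor of 6 (which removes the probe set that passed), 0 in a fit of the 2 groups alone, 28 without the arrays labelled wild type 3 and Eµ-TTP-1 3 (41% of all probe sets), 30 without the 4 arrays numbered 3 (47.3% of all), and 1 to 26 with 1 array left out. For Eµ-TTP-1 against wild type it was 1, with 0, 0, 2 and 2 under the same 4 settings (0%, 0%, 0.0135% and 0.018% of all) and 1 to 1 with 1 array left out. For Eμ-Myc;Eµ-TTP-1 against Eμ-Myc it was 0, with 5 without the arrays numbered 3 (6.7% of all). Against Eµ-TTP-1 it was 0, with 19 and 23 without 2 and without 4 arrays (33.5% and 35.6% of all) and 0 to 19 with 1 left out. For arrays with Myc against those without it was 28, with 0 without moderation of the variances and 0 to 29 with 1 array left out; all other settings gave 24 to 30. For the interaction it was 1, with 0 at a floor of 6, under quantile normalization, a common median, values under 4 set to 4, no moderation and the replicate block, 3 without the arrays numbered 3 (0.58% of all), and 0 to 1 with 1 left out. The replicate block, used because of the pairing of Eµ-TTP-1 with wild type but fitted over all 4 groups, gave 0 for the interaction. It changed no other count of members. The causes were not tested.

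Scaling to a common median moved the median of all probe sets from -0.21 to 0.12 in Eμ-Myc against wild type, from 0.25 to -0.02 in double transgenic against Eμ-Myc and from 0.34 to -0.03 in the interaction. Of all probe sets, 3128 were higher and 4021 lower with Myc, against 5179 and 4191 under quantile normalization and 4989 and 3873 with a common median.

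Among named probe sets, signs turned only where the difference had not passed. Ranges are over fits with 1 array left out. In Eµ-TTP-1 against wild type, Igk 1452557_a_at ran from -0.112 to 0.2196, Iglv1 1447918_x_at from -0.2956 to 0.6373 and Ighg3 1427503_at from -0.9473 to 0.0148. In double transgenic against Eμ-Myc, Iglv1 1427292_at ran from -0.6361 to 1.3994 and 1451965_at from -1.4966 to 0.0829, with 0.0901 without the arrays numbered 3. There Ighg3 1427503_at ran from -0.0454 to 0.3544, with -0.1151 under quantile normalization and -0.14 with a common median, and Ighm 1427329_a_at gave -0.1381 with a common median. Against Eµ-TTP-1, Ighg3 1427503_at ran from -0.587 to 0.3752. In the interaction, Igkv8-30 1452463_x_at ran from -0.4547 to 0.019 and Igk 1452557_a_at from -0.4467 to 0.1016, and Ighm 1427329_a_at gave -0.0721 with a common median. Over all named probe sets and settings, 910 values kept direction and call, 36 lost and 45 gained a call, and 21 turned.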
